A study of Homo sapiens with 4 samples.

Results

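The metallothionein and zinc transport genes described here are 10 genes taken by symbol: the metallothioneins MT1E, MT1F, MT1X and MT2A, the zinc-sensing transcription factor MTF1, the exporters SLC30A1 and SLC30A10, and the importers SLC39A4, SLC39A6 and SLC39A10. All 10 matched 1 gene each among the 56865 genes that the deposited transcripts map to in GENCODE 29. They were read in poly(A) RNA of MDA-MB-468, a human breast cancer cell line that the labels class as triple negative, at passage 12. The comparison was between cells given 5 µM of MS1943 for 3 days (n = 2) and others given the vehicle DMSO (n = 2), for which no time is given. The series title names MS1943 as a degrader of EZH2, the histone methyltransferase of Polycomb repressive complex PRC2, and the stated question is how the compound changes gene expression.

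Metallothioneins are small cysteine-rich proteins that bind zinc, copper and cadmium and buffer free zinc in the cytosol. MTF1 binds the metal response element in promoters when zinc is plentiful, and then raises the metallothionein genes and SLC30A1 and restrains SLC39A10. Proteins of the SLC30A (ZnT) family move zinc out of the cytosol, across the cell surface or into organelles, and proteins of the SLC39A (ZIP) family move it in.

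Of the 4 metallothioneins with enough reads 3 fell, and the plasma membrane exporter SLC30A1 rose. MT2A, MT1F and MT1E fell by 0.71, 0.62 and 1.23 on the log2 scale, and MT1X, the second most abundant, did not pass the test. SLC30A1 rose by 0.71 on the log2 scale. Of the importers, SLC39A4 and SLC39A10 fell and SLC39A6 did not pass. MTF1 rose by 0.17, a call that 4 of the 10 alternative settings ended.

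Of the 10 members, 9 had enough reads to be tested, and 2 of the 9 were called higher and 5 lower by edgeR's quasi-likelihood test at an adjusted p under 0.05. Among all 19358 tested genes 59.3% were called, 30.0% higher and 29.4% lower, so a call by itself does not set a member apart. The groups did not overlap in 7 of the 9 members, against 78.3% of all tested genes. The median log2 fold change was -0.36 over the 9 tested members and -0.01 over all tested genes. Values are CPM scaled by TMM (the reads of a gene set against its library's scaled total), given as mean ± SD of n = 2. Fold changes are those of MS1943 relative to DMSO on the log2 scale, ± SE. No label says whether the duplicates were separate cultures. The p-values therefore rest on a spread between libraries that may be purely technical. In bulk RNA, fewer cells that express a gene and less RNA per cell cannot be told apart.

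The libraries held 47564377 to 71378893 estimated reads, the shallowest being MS1943 replicate 2. Mitochondrially encoded genes took 1.65% and 1.78% of the mapped reads with DMSO and 3.52% and 3.11% with MS1943. Both duplicate pairs varied beyond counting error (chi-square divided by its degrees of freedom was 6.33 for DMSO and 5.86 for MS1943), and no library was treated as a copy of its partner. That does not show that they came from separate cultures. EZH2 transcripts stood at 126 and 117 CPM with DMSO and 104 and 108 CPM with MS1943, and were called lower (-0.19 ± 0.06, edgeR adjusted p = 0.0061). The compound acts on the protein, which RNA does not show. The 6 epithelial markers summed to 6127 to 6305 CPM with DMSO and 5221 to 5245 CPM with MS1943. Of the 6, 3 were called lower (CDH1, KRT8 and KRT19) and 3 did not pass (EPCAM, KRT7 and KRT18). Endothelial markers summed to 5.90 to 6.20 and 2.47 to 2.67 CPM, and fibroblast markers, nearly all COL1A1, to 20.9 to 21.2 and 28.2 to 31.9 CPM. Of the leukocyte markers given here, CD14 (147 to 163 and 86.2 to 87.4 CPM) held nearly all reads, while PTPRC, CD3E and LYZ each had 0 to 10.1 reads per library. The part of these markers and of the mitochondrial share in the results was not tested. The sample titles carry 1 letter for each DMSO library and 3 letters for each MS1943 library, and no label explains them. Whether the MS1943 libraries are pools of dishes is therefore unknown, and with it whether a library of either group stands for the same number of cultures.

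**Figure D1:**
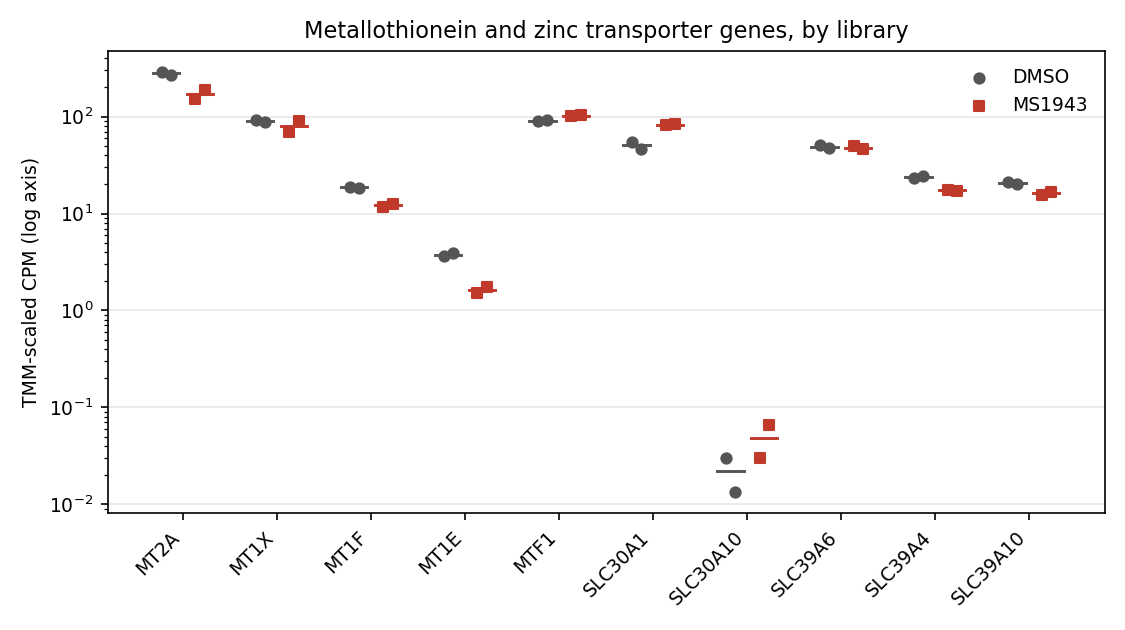
TMM-scaled CPM (log axis) of the 10 member genes in each of the 4 libraries: circles are DMSO, squares MS1943, and short lines the group means. MT2A, MT1F and MT1E lie lower in both MS1943 libraries, SLC30A1 lies higher, MT1X and SLC39A6 overlap, and SLC30A10 is at the level of 3 reads or fewer.

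MT2A, the most abundant metallothionein of many human tissues, stood at 290.0 and 270.0 CPM in the DMSO libraries and at 152 and 189 CPM in the MS1943 libraries. Both MS1943 libraries lay below both DMSO libraries, with more spread between them. Mean levels were 280.0 ± 14.1 and 171 ± 26.1 CPM, a log2 fold change of -0.71 ± 0.08 (edgeR adjusted p = 1.51e-07). The gene (ENSG00000125148) lies on hg38 chromosome 16 from 56608199 to 56609497, on the forward strand.

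MT1X (ENSG00000187193, chromosome 16, 56682424 to 56684196) was read at 91.6 and 87.2 CPM with DMSO and at 69.4 and 89.0 CPM with MS1943. The second MS1943 library lay inside the DMSO range and the first below it. The difference of -0.18 ± 0.08 did not pass (edgeR adjusted p = 0.0629). With 1 library left out it was -0.15 without DMSO replicate 1, -0.22 without DMSO replicate 2 and -0.38 without MS1943 replicate 2. Without MS1943 replicate 1 it was -0.02. The first 3 of these 4 fits called MT1X lower, but each assumes that the lone library of a group varies like the other pair. With all 4 libraries the DESeq2 Wald test did not call it (-0.16, DESeq2 adjusted p = 0.459).

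MT1F (ENSG00000198417, chromosome 16, 56657694 to 56660698) was read at 18.8 and 18.5 CPM with DMSO and at 11.7 and 12.6 CPM with MS1943. The groups are apart and each pair is close. The fall was -0.62 ± 0.08 (edgeR adjusted p = 9.01e-07). MT1E (ENSG00000169715, chromosome 16, 56625475 to 56627112), the least abundant of the 4, was read at 3.63 and 3.92 CPM and then at 1.52 and 1.73 CPM. It had the largest log2 fold change of the tested members, -1.23 ± 0.16 (edgeR adjusted p = 1.67e-06), and rested on 239 and 294 reads with DMSO and 101 and 79 reads with MS1943.

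The other genes of the family had almost no reads. Of 11 listed metallothionein genes, MT1A, MT1B, MT1G, MT1M, MT3 and MT4 had no read in any library, and a floor of 3 reads, for counting error only, puts their upper limit between 0.0400 and 0.0656 CPM depending on the library. MT1H had 1 read in DMSO replicate 2. Of the 4 that could be tested 0 rose, 3 fell and 1 did not pass, and their median log2 fold change was -0.67. The shares over all tested genes were 30.0% higher and 29.4% lower, and no difference from them was tested.

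The metallothionein genes share sequence, and Salmon divides reads that fit more than 1 gene by a model whose error is not in the files. Of the 31-base words of each main transcript, 87.8% were found in no other gene's transcripts for MT2A-201, 91.7% for MT1F-201, 84.7% for MT1E-201 and only 51.9% for MT1X-201. The split between MT1X and its relatives may therefore be less certain than that of the other 3. MT1X-201 also shares words with AC026461.1, a gene that overlaps MT1X on the same strand and had 0 reads in all 4 libraries. How much of the lower share of MT1X-201 comes from that gene was not counted. The sum over all 21 annotated metallothionein genes and pseudogenes does not depend on how reads are divided among them. It was 404 and 379.7 CPM with DMSO and 235 and 293 CPM with MS1943, so the groups did not overlap. The means were 391.9 ± 17.2 and 264 ± 40.7 CPM, and the sum was given no test. The genes and pseudogenes outside the 4 members added 3.00 to 6.01 reads per library.

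The make-up of that sum also differed between the groups. MT2A held 71.8% and 71.1% of the metallothionein reads with DMSO, and 64.8% and 64.7% after MS1943. That of MT1X went from 22.7% and 23.0% to 29.5% and 30.4%. The ratio of MT1X to MT2A in CPM was 0.316 and 0.323 with DMSO and 0.455 and 0.470 with MS1943. So this ratio was alike in the MS1943 pair although the level of each gene was not. MS1943 replicate 2 stood above replicate 1 by 1.24-fold for MT2A and 1.28-fold for MT1X, and by 1.07-fold for MT1F. Across the 11688 genes at or above 2 in average log2 CPM, the 5th and 95th percentiles of that ratio between the MS1943 libraries were 0.894 and 1.12. These shares and ratios are descriptions and were given no test.

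**Figure D2:**
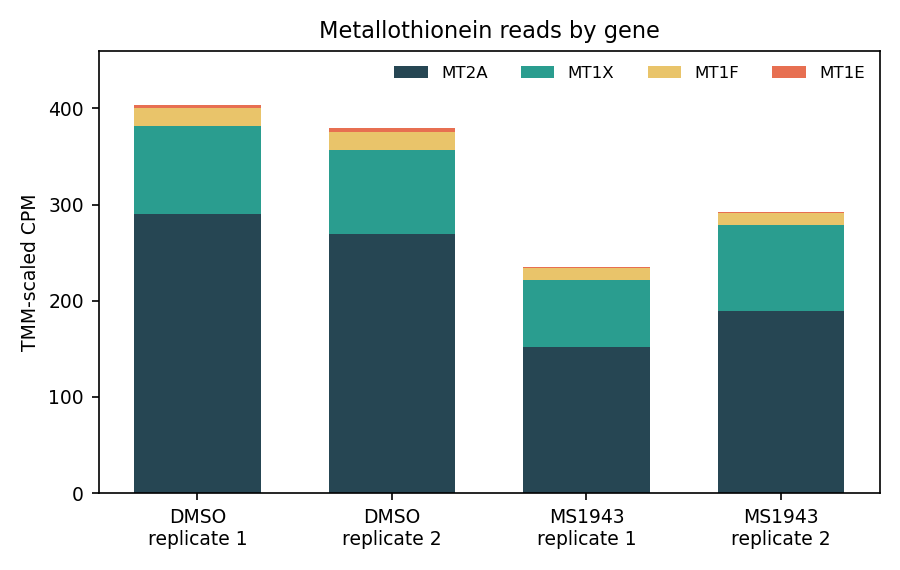
TMM-scaled CPM of MT2A, MT1X, MT1F and MT1E, stacked, for each of the 4 libraries (linear axis from 0). The stacks reach 404 and 379.7 CPM with DMSO and 235 and 293 CPM with MS1943, and the MT1X part is a larger share of the MS1943 stacks.

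Promoter sequence of 7 of the 10 members was matched by symbol in the RefSeq table (build GRCh38.p14); the others were MT1E, MT1F and SLC39A4. The metal response element core was searched as TGCACNC or TGCGCNC, on both strands and with overlaps counted, in the 250 bases before each RefSeq start. MT2A had 7 matches and MT1X 4, SLC30A1 and SLC39A6 had 1 each, and MTF1, SLC30A10 and SLC39A10 had 0. Of the 35116 windows in the table, 24.8% held at least 1 match, 0.370% at least 4 and 0.0313% at least 7. A match is a description of the letters and not evidence that MTF1 binds there, and a window with none says nothing of other windows.

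The stretches below are shown because MT2A, MT1X and SLC30A1 are all known to respond to zinc through such elements, and here MT2A fell, MT1X did not pass and SLC30A1 rose. They are written 5′ to 3′ on the strand of the gene, with matches to the core in capitals. For MT2A they are 2 stretches of 30 bases, chr16:56608412-56608441 and chr16:56608512-56608541, which hold 3 of its 7 matches and are kept short because GENCODE 29 places the start of MT2A-201 farther upstream than RefSeq does. For MT1X the stretch is chr16:56682220-56682423, which ends where the first GENCODE exon begins.
MT2A, first stretch: gcccGTGTGCAgagccgggTGCGCCCggcc
MT2A, second stretch: cggccggggcggggctttTGCACTCgtccc
MT1X: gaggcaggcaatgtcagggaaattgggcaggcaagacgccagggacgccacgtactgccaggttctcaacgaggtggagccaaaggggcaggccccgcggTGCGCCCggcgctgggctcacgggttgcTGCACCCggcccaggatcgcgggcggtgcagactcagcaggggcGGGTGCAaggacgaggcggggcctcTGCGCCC
SLC30A1: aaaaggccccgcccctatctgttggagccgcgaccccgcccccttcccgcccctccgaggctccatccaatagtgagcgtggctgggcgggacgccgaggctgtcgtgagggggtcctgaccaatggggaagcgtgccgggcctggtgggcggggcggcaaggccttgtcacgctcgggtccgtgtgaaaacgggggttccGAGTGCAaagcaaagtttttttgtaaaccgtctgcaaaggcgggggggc
The SLC30A1 window is chr1:211579162-211579411 on the reverse strand. The GENCODE 29 start of that gene lies 419 bases downstream of the RefSeq start, so the bases next to the GENCODE start are outside the window.

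MTF1 (ENSG00000188786, chromosome 1, 37809567 to 37859620, reverse strand) was read at 89.8 and 91.6 CPM with DMSO and at 101 and 103 CPM with MS1943. The groups did not overlap, and the difference was small. It passed as 0.17 ± 0.05 (edgeR adjusted p = 0.0096). In TPM, the abundance per transcript length that Salmon gives, the order was the opposite, 24.8 and 26.3 with DMSO against 21.3 and 23.8 with MS1943. With an offset for transcript length the log2 fold change was -0.08 (edgeR adjusted p = 0.379), and with total-read scaling it was 0.06 (edgeR adjusted p = 0.314). The call also ended with no filter on low counts (0.14, edgeR adjusted p = 0.0914) and without MS1943 replicate 2 (0.15, edgeR adjusted p = 0.0695). Reads of MTF1-201, the full-length coding transcript, were at 15.7 and 16.6 TPM with DMSO and 16.6 and 16.8 TPM with MS1943. The short non-coding transcript MTF1-202, singled out after its values were seen, held only 1.29% ± 0.05 and 0.789% ± 0.197 (SD, n = 2) of the gene's reads. Its TPM went from 9.09 and 9.63 to 4.71 and 6.95, which did not pass as a transcript (edgeR adjusted p = 0.310).

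SLC30A1 (ENSG00000170385, chromosome 1, 211571568 to 211578742, reverse strand), which carries zinc out across the plasma membrane, was read at 54.4 and 46.6 CPM with DMSO. With MS1943 it was read at 82.5 and 83.2 CPM, above both controls. The rise of 0.71 ± 0.07 (edgeR adjusted p = 1.62e-08) is 1.64-fold. The annotation gives SLC30A1 a single transcript, and every 31-base word of it was found in no other gene. Per length the gene went from 14.3 and 12.7 TPM to 20.1 and 20.3 TPM.

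SLC30A10 (ENSG00000196660, chromosome 1, 219685427 to 219958647), a manganese exporter of the same family, had 2 reads and 1 read in the DMSO libraries and 2 and 3 reads in the MS1943 libraries. All are at or under the floor of 3 reads, so no fold change is given and no difference was detectable at this depth.

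Of 10 SLC30A genes, 8 could be tested. Their median was -0.01: 3 of them rose, 3 fell and 2 did not pass. Over all tested genes 30.0% were called higher and 29.4% lower, and whether this family differs from that was not tested. Beside SLC30A1, the genes that rose were SLC30A6 and SLC30A7, both transporters of the early secretory pathway that supply zinc to secreted enzymes. SLC30A6 was read at 88.0 and 80.7 CPM with DMSO and 129 and 132 CPM with MS1943 (0.63 ± 0.06, edgeR adjusted p = 1.39e-08). SLC30A7 was read at 61.3 and 61.4 CPM and then at 88.5 and 92.5 CPM (0.56 ± 0.05, edgeR adjusted p = 3.91e-08). SLC30A5, which forms a heterodimer with SLC30A6, stood at 65.5 and 64.8 CPM with DMSO and 62.6 and 69.6 CPM with MS1943 and did not pass (0.02 ± 0.06, edgeR adjusted p = 0.809). Whether the changes of SLC30A5 and SLC30A6 differ was not tested.

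The exporters SLC30A2, SLC30A3 and SLC30A4 fell, and each is known to load zinc into vesicles. SLC30A4 went from 16.4 ± 1.49 to 13.1 ± 0.22 CPM (-0.32 ± 0.08, edgeR adjusted p = 0.0022). SLC30A2, known for secreting zinc into milk, went from 2.08 and 2.24 CPM to 0.752 and 0.896 CPM (-1.40 ± 0.21, edgeR adjusted p = 8.27e-06). SLC30A3, a synaptic vesicle transporter in neurons, went from 1.53 and 1.56 CPM to 0.993 and 0.525 CPM (-0.98 ± 0.26, edgeR adjusted p = 0.0028). The size of that last fall rests on single libraries, at -1.57 without MS1943 replicate 1 and -0.65 without MS1943 replicate 2. SLC30A9, linked to mitochondria, did not pass (-0.04 ± 0.06), and SLC30A8, the transporter of insulin granules, had 1 to 6 reads per library and was not tested.

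**Figure D3:**
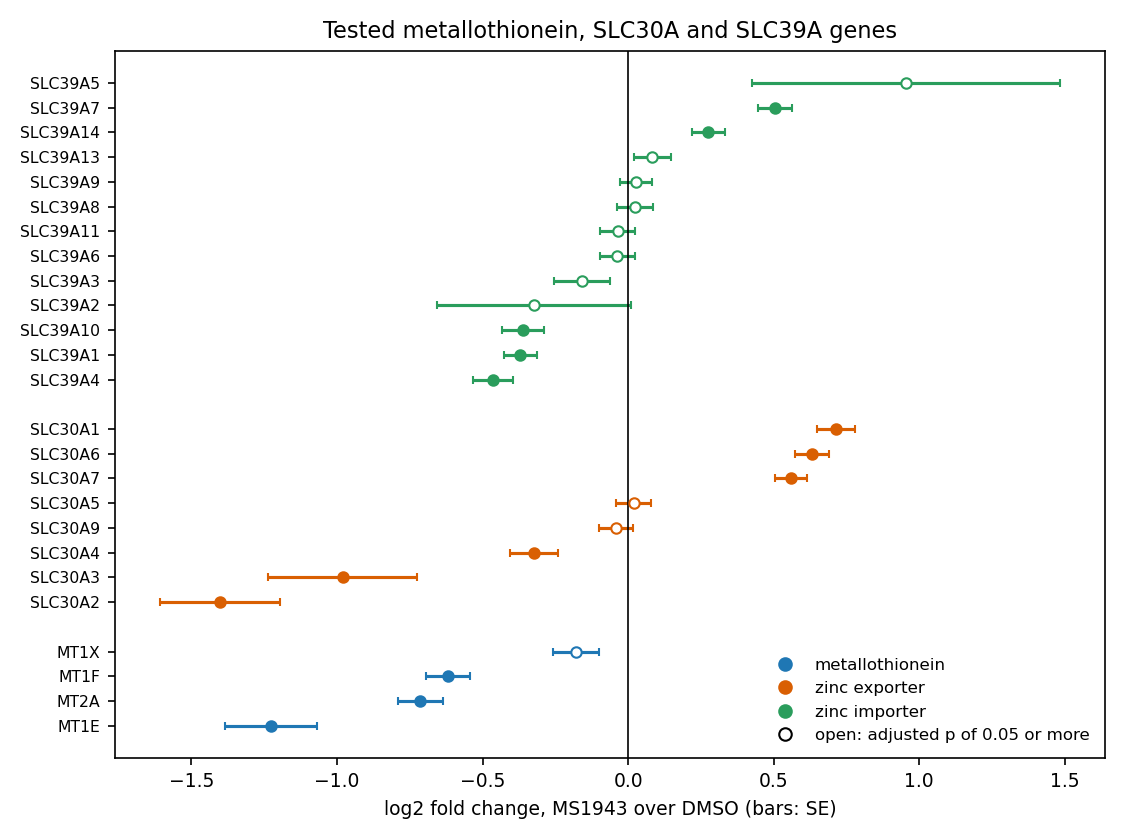
Log2 fold change, MS1943 over DMSO, with its SE, for the 4 metallothionein, 8 SLC30A and 13 SLC39A genes tested by edgeR. Filled points have an adjusted p under 0.05: 3 metallothioneins lie below 0, the SLC30A genes split into 3 above and 3 below, and of the SLC39A genes 2 lie above and 3 below.

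SLC39A4 (ENSG00000147804, chromosome 8, 144409742 to 144416895, reverse strand), the importer whose loss causes the zinc deficiency disease acrodermatitis enteropathica, was read at 23.2 and 24.4 CPM with DMSO. With MS1943 it was read at 17.3 CPM in both libraries. The groups are apart, and the fall was -0.46 ± 0.07 (edgeR adjusted p = 9.71e-06). Unstranded reads of an antisense gene that overlaps it, AC233992.3, came to 8 to 20 per library.

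SLC39A10 (ENSG00000196950, chromosome 2, 195575977 to 195737702), a plasma membrane importer that MTF1 is known to restrain, was read at 21.0 and 20.4 CPM with DMSO and at 15.6 and 16.6 CPM with MS1943. Both MS1943 libraries lay below both controls, a change of -0.36 ± 0.07 (edgeR adjusted p = 2.34e-04). SLC39A6 (ENSG00000141424, chromosome 18, 36108532 to 36129385, reverse strand), also named LIV-1 and known as an estrogen-regulated gene of breast tumours, was read at 50.5 and 47.5 CPM with DMSO and 49.3 and 46.05 CPM with MS1943. The groups overlap, and the difference of -0.04 ± 0.06 did not pass (edgeR adjusted p = 0.614). SLC39A6 and SLC39A10 are close relatives within the ZIP family. Their differences were not tested against each other.

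Of 14 SLC39A genes, 13 could be tested. Their median was -0.04: 2 of them rose, 3 fell and 8 did not pass. Calls over all tested genes came to 30.0% higher and 29.4% lower, and the family was not tested against these shares. SLC39A12 had no read. SLC39A7, which releases zinc from the endoplasmic reticulum, was read at 277 and 276 CPM with DMSO and 404 and 381 CPM with MS1943 (0.50 ± 0.06, edgeR adjusted p = 3.20e-07). SLC39A14, which also carries iron and manganese, went from 75.8 and 71.7 CPM to 91.1 and 87.2 CPM (0.28 ± 0.06, edgeR adjusted p = 2.97e-04). SLC39A1, an importer of the plasma membrane, fell from 247 ± 4.78 to 191 ± 7.79 CPM (-0.37 ± 0.06, edgeR adjusted p = 1.26e-05). The 8 that did not pass, SLC39A6 among them, lay between -0.32 (SLC39A2) and 0.95 (SLC39A5, under 0.3 CPM in every library). With total-read scaling, which lowers the median of all genes to -0.12, 5 importers rather than 3 were called lower and 2 were still called higher.

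Set per transcript length, the levels of the members span a wide range. With DMSO, MT2A stood at 778 ± 33.7 TPM and MT1X at 601 ± 25.7 TPM, followed by SLC39A4 (79.9 ± 3.96 TPM) and MT1F (63.3 ± 0.97 TPM). The place of SLC39A4 rests on how Salmon divided reads among its transcripts, since the short non-coding SLC39A4-209 held 51.1 TPM of that level. MTF1 (25.5 ± 1.03 TPM) and SLC39A6 (22.2 ± 0.26 TPM) came next. The place of MTF1 also rests on that division, since the short non-coding MTF1-202 held 9.36 TPM of its level. MTF1-201 alone stood at 16.2 ± 0.65 TPM, below SLC39A6. SLC30A1 (13.5 ± 1.12 TPM) and MT1E (12.5 ± 0.65 TPM) overlapped and have no order, and SLC39A10 was at 6.53 ± 0.36 TPM. With MS1943 the group ranges of MT2A (430.4 ± 65.7 TPM) and MT1X (471 ± 88.1 TPM) overlapped. Within each MS1943 library MT1X lay above MT2A in TPM, at 409 against 384 TPM and 533 against 477 TPM. In each DMSO library MT2A lay above MT1X. The place of MT2A beside MT1X in TPM rests on annotated length, 786 bases for MT2A-201 and 450 for MT1X-201. The annotation starts MT2A-201 farther upstream than RefSeq does, and a shorter length would raise its TPM. In CPM, MT2A stayed above MT1X in both MS1943 libraries, at 152 against 69.4 CPM and 189 against 89.0 CPM. SLC30A1 reached 20.2 ± 0.14 TPM, inside the range of SLC39A6 (20.0 ± 1.08 TPM), while MT1E was at 4.76 ± 0.46 TPM, close to SLC39A10 at 4.34 ± 0.09 TPM.

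The transcripts behind the gene values were tested in a fit over all 74941 transcripts with enough reads, of which 12.4% were called, 6.23% higher and 6.21% lower. The members have 45 annotated transcripts in the files, 25 were tested, 2 were called higher and 4 lower. MT2A-201, MT1F-201 and MT1E-201, the main coding transcripts, held 98.5%, 98.6% and 97.6% of their genes' reads with DMSO and fell with them (-0.79, -0.69 and -1.28, edgeR adjusted p = 0.0275, 0.0218 and 0.0287). SLC30A1-201 rose (0.64, edgeR adjusted p = 0.0289). SLC39A10-201, with 98.5% of that gene's reads, did not pass as a transcript (-0.42, edgeR adjusted p = 0.0547). Fits without 1 library called far fewer transcripts, and each of the 6 calls ended in at least 3 of the 4 such fits.

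Most reads of SLC39A4 were assigned to transcripts annotated as not coding. Its 3 coding transcripts together held 26.7 and 30.1 reads with DMSO and 6.44 and 9.87 reads with MS1943, which is 1.69% ± 0.08 and 0.905% ± 0.487 (SD, n = 2) of the gene. SLC39A4-209, a processed transcript of 668 bases that lies over exons 8 to 11 of the full-length SLC39A4-201, held 61.2% ± 0.40 and 54.2% ± 1.56 of the reads. It was read at 49.7 and 52.5 TPM with DMSO and at 29.1 and 30.5 TPM with MS1943, a change of -0.71 ± 0.10 (edgeR adjusted p = 0.0219). SLC39A4-206 and SLC39A4-205, with 14.2% and 11.8% of the reads in DMSO, did not pass (-0.14 and -0.15). SLC39A4-207 also did not pass (-0.78, edgeR adjusted p = 0.117). SLC39A4-209 holds exons 9 to 11 of SLC39A4-201 whole, so many reads could fit both, and the division among these transcripts is Salmon's estimate with an error that the files do not hold.

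MT1X-203, singled out after its values were seen, rose while the gene did not pass. It is annotated as a target of nonsense-mediated decay and keeps 156 bases past exon 2 of the coding form, chr16:56683231-56683386. It was read at 5.13 and 6.77 TPM with DMSO and at 14.8 and 16.02 TPM with MS1943. Its change was 1.44 ± 0.24 (edgeR adjusted p = 0.0314), and without any 1 of the 4 libraries the adjusted p from edgeR was 0.0786 to 0.129. By comparison the coding MT1X-201 stood at 612 and 575 TPM and then 391.9 and 514 TPM (-0.31 ± 0.14, edgeR adjusted p = 0.230). The share of MT1X-203 in the gene's reads went from 1.38% ± 0.31 to 4.49% ± 0.56. MT1X-204, annotated as keeping an intron, also lay higher, at 1.23 and 1.39 TPM with DMSO and 1.73 and 1.90 TPM with MS1943. It was not called (0.53 ± 0.23, edgeR adjusted p = 0.221), and its share went from 1.53% ± 0.15 to 2.64% ± 0.29. The division of reads among the MT1X transcripts is again an estimate of unknown error. Whether the rise belongs to MT1X-203 alone was therefore not settled, and whether MT1X-204 holds the same 156 bases was not checked. The reads of SLC39A6 divide mainly between SLC39A6-201 and SLC39A6-204. Neither passed (-0.25, edgeR adjusted p = 0.104, and 0.22, edgeR adjusted p = 0.412), and the share of SLC39A6-201 was 71.4% and 73.8% with DMSO and 64.99% and 67.0% with MS1943.

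**Figure D4:**
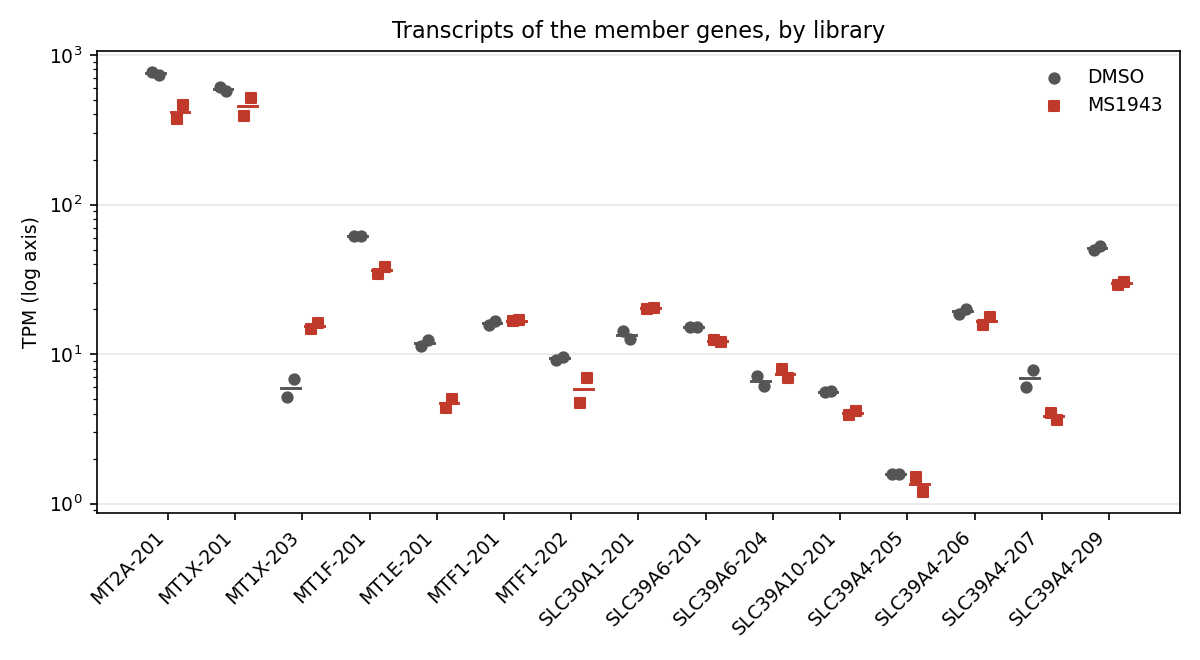
TPM (log axis) in each of the 4 libraries for 15 transcripts of the member genes: circles are DMSO, squares MS1943, and short lines the group means. MT1X-203 is higher in both MS1943 libraries while MT1X-201 is lower in both without passing the test, and SLC39A4-209 is lower in both.

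The 4 metallothioneins lie within a cluster of 119 kb on chromosome 16, from MT4 at 56565049 to the end of MT1X at 56684196. Within 500 kb on either side, a distance chosen after the values were seen, 15 other genes were tested, of which 7 rose, 2 fell and 6 did not pass. Among all tested genes 30.0% were called higher and 29.4% lower, and whether these neighbours differ from that was not tested. Of the 10 that are protein coding, 5 rose and 2 fell, with log2 fold changes from -0.42 to 1.64, against -1.23 to -0.18 for the metallothioneins. The lowest and highest of all 15, -0.70 and 2.62, belong to AC009090.5 and AC012181.2, not annotated as protein coding, both under 0.5 CPM in the mean of either group. The nearest tested protein-coding neighbours, BBS2 on one side (0.04 ± 0.06) and NUP93 on the other (-0.12 ± 0.06), did not pass (edgeR adjusted p = 0.593 and 0.0666). The highest of the protein-coding neighbours was HERPUD1, a gene of endoplasmic reticulum associated degradation 324 kb from the start of MT2A. It rose by 1.64 ± 0.06.

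**Figure D5:**
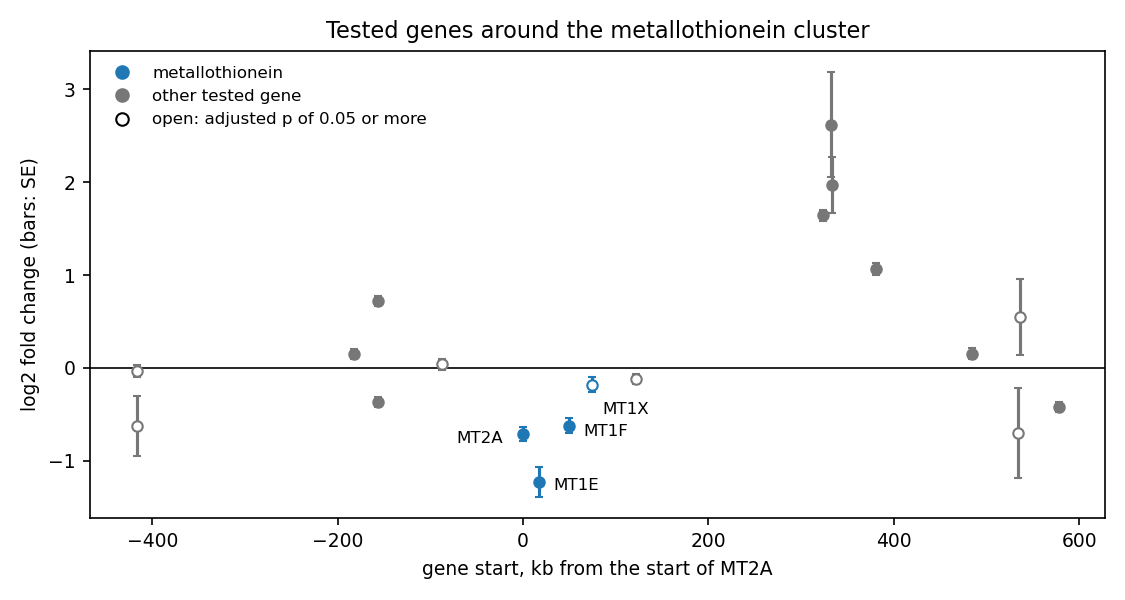
Log2 fold change with its SE for the tested genes within 500 kb of the metallothionein cluster, placed by the distance of their start from the start of MT2A in kb. The 4 metallothioneins lie below 0, and 7 of the 15 other genes are filled points above 0.

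Genes for other metals were read for comparison. Of 10 copper handling genes, 1 rose, 2 fell and 7 did not pass (median -0.01). Beside them, 30.0% of all tested genes were called higher and 29.4% lower, and the copper list was not tested against these shares. SLC31A1, the copper importer of the cell surface, stood at 101 ± 0.75 CPM with DMSO and 132 ± 2.84 CPM with MS1943 (0.39 ± 0.05, edgeR adjusted p = 3.41e-06). The gene of the copper chaperone ATOX1 fell from 35.0 ± 0.79 to 21.5 ± 0.90 CPM (-0.71 ± 0.07, edgeR adjusted p = 1.71e-08), and ATP7A, the copper pump that ATOX1 serves, from 27.7 ± 0.02 to 17.1 ± 0.28 CPM (-0.69 ± 0.07, edgeR adjusted p = 3.49e-08). With total-read scaling 5 of the copper genes, rather than 2, were called lower.

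Of 6 genes that handle manganese, 5 were tested, 2 rose, 2 fell and 1 did not pass. This list too was not tested against the shares over all tested genes, 30.0% higher and 29.4% lower. SLC11A2, the divalent metal transporter DMT1, was read at 112 and 105 CPM with DMSO and at 48.1 and 46.6 CPM with MS1943. The groups are far apart, and the change was -1.19 ± 0.06 (edgeR adjusted p = 1.27e-12). ATP2C1, the calcium and manganese pump of the Golgi, stood at 117 ± 5.37 CPM with DMSO and 173 ± 0.13 CPM with MS1943 (0.56 ± 0.06, edgeR adjusted p = 4.70e-08). TMEM165, also of the Golgi, fell from 64.0 ± 2.48 to 52.5 ± 2.37 CPM (-0.29 ± 0.06, edgeR adjusted p = 2.86e-04).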

How the data were processed

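The 4 RNA-seq libraries were grouped by their treatment labels. The submitters' processing notes name Salmon 0.9.1, build hg38, DESeq2 and R 3.4.3, with no order. For the annotation release and Salmon's options, the sources used here give nothing. The TruSeq v2 kit used on poly(A) RNA, per the labels' protocols, does not mark strand. The estimated counts deposited are Salmon's reads per transcript, per the file headers. The TPM values deposited are Salmon's abundances per effective length, per the file headers. Of 197653 transcripts, 193505 matched GENCODE 29 without version, and the other 4148, holding 0.482% to 0.496% of reads, were left out. Estimated counts were summed per gene and rounded. Under R 4.3.3, genes were tested by edgeR 4.0.16 (quasi-likelihood) after TMM and filterByExpr, with treatment as the model, Benjamini-Hochberg adjusted over 19358 genes (74941 transcripts) and called at an adjusted p under 0.05. The procedure was tested on simulated data with far fewer changed genes than were called here. That does not show how it behaves at the share called here. The SE is the log2 fold change divided by the square root of F. Alternatives were DESeq2 1.42.0, its size factors, 2 other filters, total reads, a transcript length offset and each replicate left out.

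Named genes are the 10 members, the listed metallothionein, SLC30A, SLC39A, copper and manganese genes, EZH2, and member transcripts with at least 5% of their gene's reads. Cell type markers and some genes that overlap or neighbour a member are also named. So are MT1X-203, MT1X-204, MTF1-202 and SLC39A4-201, each under 5% of its gene's reads in the mean of either group. The members and lists were chosen with earlier results of these data known. One marker gene is not reported here.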

Additional observations from a re-analysis of the deposited data

How the results depend on the processing

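MT2A, MT1F, MT1E, SLC30A1, SLC39A4 and SLC39A10 kept their direction and call in all 10 alternatives. MT1X, which did not pass, was called lower in 5 of them, among them total-read scaling (-0.29) and no filter on low counts (-0.21). MTF1 lost its call in 4, turning to -0.076 with the transcript length offset, so only 1 member, SLC30A1, was called higher with that offset, with total reads, with no filter and without MS1943 replicate 2. SLC39A6 was called lower (-0.15) with total reads and ran from -0.10 to 0.0030 with a replicate left out. Leaving out replicates gave 1 to 2 members higher and 5 to 6 lower, against 2 and 5. With total reads, 5 importers against 3 and 5 copper genes against 2 were called lower, the median of all genes moving to -0.12, and the split over all genes was 4619 higher and 6973 lower against 5799 and 5689.

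Transcript calls depend on the number of libraries: 4666 were higher and 4653 lower with all 4, and 866 to 1604 higher and 962 to 1348 lower with a replicate left out. The lone sample of a group is then assumed to vary like the other pair. No paired analysis was possible because the labels give no replicate numbers or pairing. The alternatives for the copper, manganese, neighbouring and summed values were chosen after seeing the data. Depth limits SLC30A10 and SLC30A8, and the error of dividing reads among metallothioneins is not in any p-value.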
